A study of Mus musculus with 20 samples.

Results

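Iron handling in the liver was followed through 10 genes: Lcn2, Steap4, Slc40a1, Hamp, Tfrc, Trf, Fth1, Ftl1, Hp and Hpx. They were chosen by name, as the probe sets whose platform annotation carries 1 of these symbols, with earlier results of these data known. Of the 10 genes, 8 had a probe set of their own that passed the filter on dim probe sets, out of 12832 genes tested and 18193 genes with a probe set of their own. Ftl1 and Trf were measured only by probe sets that are also annotated to another gene, and their values are given by probe set. In all, 21 of 45101 probe sets carried a member symbol: 14 with that symbol alone, 4 shared with another gene and 3 manufacturer's control probe sets for Tfrc.

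The liver stores iron and sets its level in blood. Hepatocytes secrete hepcidin, the product of Hamp, a peptide hormone that causes the iron exporter ferroportin, the product of Slc40a1, to be degraded, so that iron stays inside macrophages and gut cells. Kupffer cells, the resident liver macrophages, recover iron from aged red cells and release it through ferroportin. In inflammation the liver also secretes lipocalin 2, encoded by Lcn2, which binds bacterial iron-carrying siderophores, and the plasma scavengers haptoglobin and hemopexin, which bind free hemoglobin and heme.

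The study followed injuries of different severity and duration in male C57BL/6 mice of 8 to 12 weeks. RNA was taken from whole liver and each sample was hybridised to an Affymetrix Mouse430_2 array, 20 arrays in 5 groups. Control mice (n = 5) were not manipulated, and the minor trauma group (n = 3) was anesthetized and operated on, but neither the operation nor its duration was given in the sources used here. The shock group (n = 4) had 1.5 h of hemorrhagic shock with severe trauma and no resuscitation. The remaining groups had the same 1.5 h of shock and trauma and were then resuscitated for 1 h (n = 4) or 4.5 h (n = 4). Control mice were thus not a sham for anesthesia and surgery, which the 4 other groups share. No label ties an array to a named animal, so the p-values measure the spread between these samples. Levels are given as log2(signal + 6) after quantile normalization, on which every array has a median of 4.60. Calls were made in limma at a threshold of 0.05 on p-values adjusted over all genes tested.

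The array labelled control 5 stood apart from its group. Across genes its closest match was array 2 of the minor trauma group (r = 0.983), and it carried a high level of Lcn2, described below, so differences from control that gain or lose a call without it are given beside the main values. Minor trauma array 3 had the lowest best correlation of the 20 arrays (r = 0.950). Signals came without scaling between arrays, at trimmed means of 64.9 to 167. The arrays fell into 2 sets of 10 by the spike-in control dap, and both sets held arrays of every group. The summed normalized signal of 6 hepatocyte markers, among them albumin, was 41708 to 46676 in controls, and it lay between 44296 and 48560 elsewhere. Most of it came from Alb, Ttr, Apoa1 and Cps1, at log2 levels of 12.75 to 13.54, where 13.54 is the highest on an array. The sum therefore had little room to move and does not measure hepatocyte content. After 4.5 h, 2 of the 6 were called higher and 1 lower, against 15.1% and 23.8% of all genes. No erythroid marker other than Alas2 and Klf1 was among the genes tested. Precision is limited by the few arrays in each group.

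Lcn2, Steap4 and Slc40a1 passed limma's F test for any difference between groups, as did 45.4% of all genes. Lcn2 and Steap4 rose and Slc40a1 fell in resuscitated liver. Hamp, Tfrc, Hp, Hpx and Fth1 passed the test in none of the 7 comparisons. In minor trauma 2 of 8 members were called higher, against 2.07% of all genes, and 0 were called lower, against 1.37%. In shock 0 were called higher, against 2.03%, and 0 lower, against 1.08%. After 1 h of resuscitation 2 were higher, against 4.61%, and 1 lower, against 5.31%. After 4.5 h the counts were again 2 higher, against 15.1%, and 1 lower, against 23.8%. Only Lcn2, Steap4 and Slc40a1 make up these counts. The median log2 difference of the 8 members at 4.5 h was 0.09, and that of all genes -0.09.

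**Figure D1:**
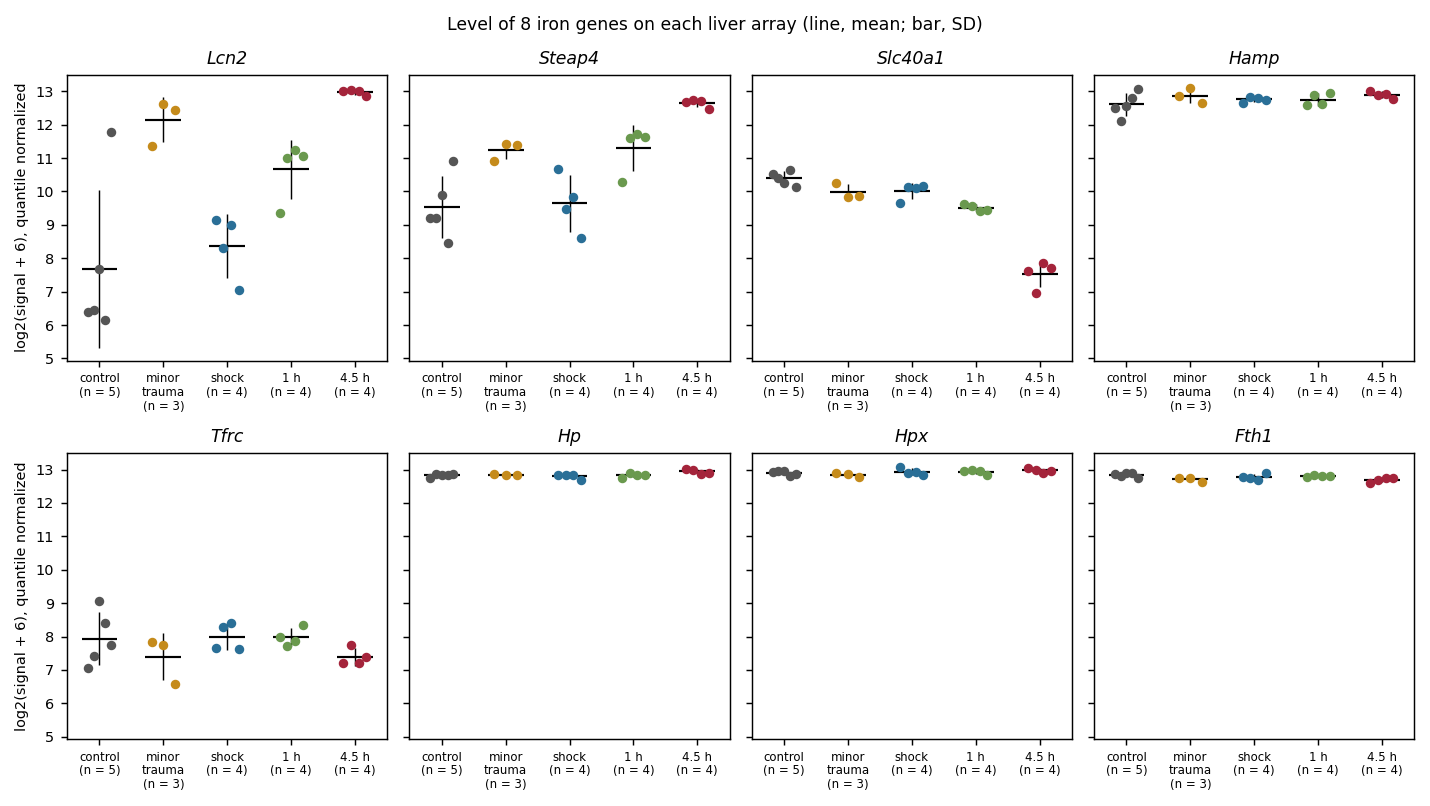
Level of each of the 8 tested iron genes on every array, as log2(signal + 6) after quantile normalization, by group; points are arrays, horizontal lines group means and vertical bars SD. Lcn2 and Steap4 are highest and Slc40a1 lowest on the 4 arrays of the 4.5 h group, while Hamp, Hp, Hpx and Fth1 stay between 12.10 and 13.11 on all arrays.

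Lcn2, which encodes the siderophore-binding secreted protein lipocalin 2, showed the largest differences of the 8 members. Its level was 6.38, 6.44, 7.67, 6.15 and 11.78 on control arrays 1 to 5. It was 11.37, 12.62 and 12.43 in minor trauma, and 9.16, 8.30, 8.99 and 7.04 in shock. It was 9.35, 11.01, 11.23 and 11.07 after 1 h of resuscitation and 12.9994, 13.04, 13.01 and 12.86 after 4.5 h. The 4.5 h arrays all lay above every other array, and 4 of 5 controls lay below every minor trauma array and every 1 h array, while control 5 lay inside the minor trauma range.

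Against control, Lcn2 was 39.2-fold higher after 4.5 h (log2 difference 5.29 ± 0.79 SE, n = 4 against 5, limma adjusted p = 1.77e-05). It was 22.0-fold higher in minor trauma (4.46 ± 0.86, n = 3 against 5, limma adjusted p = 0.0151) and 7.89-fold higher after 1 h (2.98 ± 0.79, n = 4 against 5, limma adjusted p = 0.0169). In shock the difference was 0.69 ± 0.79 and did not pass (limma adjusted p = 0.783). Without control 5 the differences were 6.32 after 4.5 h (limma adjusted p = 8.55e-10), 5.49 in minor trauma (limma adjusted p = 1.73e-06) and 4.01 after 1 h (limma adjusted p = 1.97e-06), and that in shock was 1.71 and passed (limma adjusted p = 0.0302). Within the arrays with the dap spike-in, which hold 2 arrays of each group and not control 5, the differences were 6.79 after 4.5 h, 5.65 in minor trauma and 4.85 after 1 h (limma adjusted p = 3.56e-06, 9.59e-05 and 2.38e-05). Within those without it, which hold control 5, they were 4.27, 3.96 and 1.60 (limma adjusted p = 0.0391, 0.790 and 0.649). The minor trauma call ended without minor trauma array 3, at a difference of 4.30 (limma adjusted p = 0.103), where no gene of all those tested was called in that comparison. The 1 h call ended without control 4 or without 1 h array 2, 3 or 4, at differences of 2.60 to 2.86 (limma adjusted p = 0.0503 to 0.0603).

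Lcn2 was lower in shock without resuscitation than in minor trauma. The time from injury to sampling is unknown for minor trauma, so comparisons of other injured groups with it cannot separate severity from time. The Lcn2 difference was 13.6-fold (log2 difference -3.77 ± 0.90, limma adjusted p = 0.0108), and the groups did not overlap. Within the arrays without the dap spike-in, which hold 1 minor trauma array, it did not pass (-4.45, limma adjusted p = 0.431). In this comparison 2 of 8 members were called lower, against 5.38% of all genes, and 0 higher, against 4.18%. From shock to 1 h of resuscitation the difference was 2.29 ± 0.83 and did not pass (limma adjusted p = 0.247), although the groups did not overlap. Without control 5 it passed (limma adjusted p = 0.00696). That array belongs to neither group, and enters through the normalization, the filter and the shared estimate of spread. Members called between these groups numbered 0 higher, against 0.873% of all genes, and 0 lower, against 0.374%. From 1 h to 4.5 h Lcn2 rose 4.97-fold (2.31 ± 0.83, limma adjusted p = 0.0365), and this call ended when any 1 of 7 of the 8 arrays was left out (limma adjusted p = 0.0508 to 0.124). There 2 of 8 members were called higher, against 14.9% of all genes, and 1 lower, against 18.2%.

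Ordered by mean level, Lcn2 ran from control (7.68 ± 2.36 SD) through shock (8.37 ± 0.96), 1 h (10.66 ± 0.88) and minor trauma (12.14 ± 0.67) to 4.5 h (12.98 ± 0.08). With all arrays, no pair of neighbours in this order differed beyond its spread by the test. Without control 5, shock against control passed (1.71, limma adjusted p = 0.0302), as did 1 h against shock (2.29, limma adjusted p = 0.00696). With all arrays, the 1 h group was lower than minor trauma by a log2 difference of -1.48 ± 0.90 (limma adjusted p = 0.312), a comparison in which 12.2% of all genes were called. The 4.5 h group was above minor trauma by 0.83 ± 0.90 (limma adjusted p = 0.528, with 29.3% of all genes called) and above shock by 4.60 ± 0.83 (limma adjusted p = 0.000171, with 37.4% of all genes called).

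Neutrophils also make lipocalin 2, so their markers are set beside it. The summed normalized signal of 7 neutrophil markers was 105 to 396 in controls, 269 to 558 in minor trauma, 510 to 2308 in shock, 2668 to 4178 after 1 h and 4026 to 4555 after 4.5 h. These 7 of 12 listed genes passed the filter, and none of them lay above the array median on every control array, so no count of calls is read from them. S100a8, which encodes a calcium-binding protein abundant in neutrophils, was 3.76 to 7.53 in controls, 6.26 to 7.97 in minor trauma, 7.98 to 10.18 in shock, 10.29 to 10.99 after 1 h and 10.95 to 11.22 after 4.5 h. In shock, after 1 h and after 4.5 h, most of the summed signal came from S100a8 and the marker S100a9, so the sum mainly reads these genes. Mpo and Elane, which encode granule proteins made in immature neutrophils, passed the test in none of the 4 comparisons with control, and lay near the array median. In minor trauma high Lcn2 stood beside marker sums above those of controls 1 to 4. In shock lower Lcn2 stood beside mostly higher marker sums, although the ranges of the sums overlapped. Control 5 had a marker sum of 396, and the other 4 controls 105 to 132. In whole liver RNA, more cells of a type and more RNA per cell cannot be told apart, and the part of neutrophils in the Lcn2 signal was not tested.

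**Figure D2:**
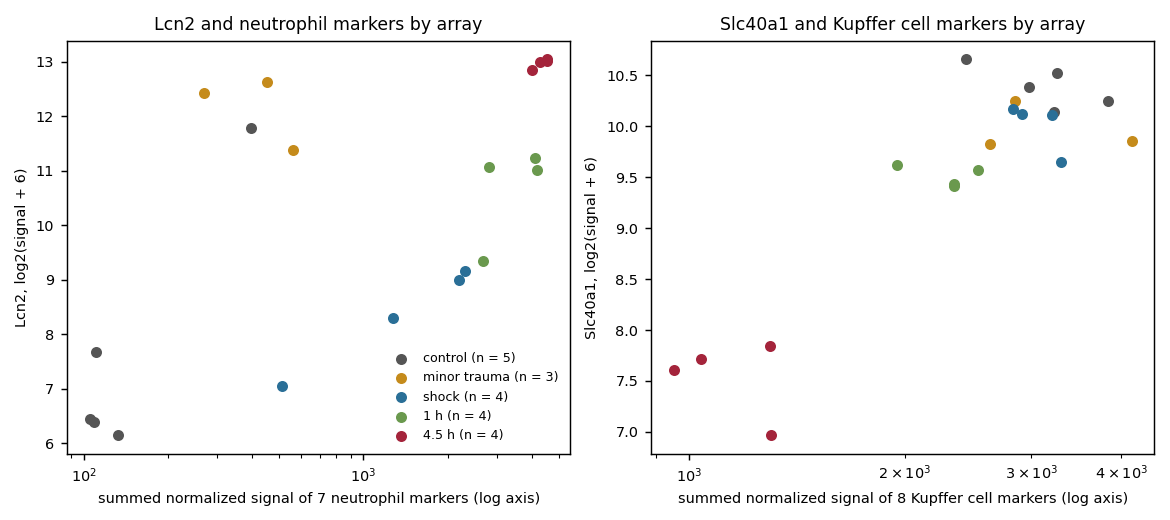
Left, level of Lcn2, as log2(signal + 6), against the summed normalized signal of 7 neutrophil markers on each array; right, level of Slc40a1 against that of 8 Kupffer cell markers; both horizontal axes are logarithmic. The minor trauma arrays reach 11.37 to 12.62 for Lcn2 at marker sums of 269 to 558, and the 4 arrays of the 4.5 h group lie lowest on both axes at right.

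Steap4 encodes a metalloreductase that reduces ferric iron and copper at membranes, and its pattern followed that of Lcn2. Its level was 9.21, 9.21, 9.91, 8.46 and 10.90 on control arrays 1 to 5 and 10.93, 11.44 and 11.40 in minor trauma. It was 10.66, 9.48, 9.82 and 8.60 in shock, 10.27, 11.59, 11.71 and 11.64 after 1 h, and 12.67, 12.72, 12.71 and 12.46 after 4.5 h. Every 4.5 h array lay above every other array, and shock overlapped control widely.

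Against control, Steap4 was 8.58-fold higher after 4.5 h (log2 difference 3.10 ± 0.40 SE, limma adjusted p = 3.03e-06) and 3.40-fold higher after 1 h (1.77 ± 0.40, limma adjusted p = 0.00552). In minor trauma it was 3.28-fold higher (1.71 ± 0.43, limma adjusted p = 0.0348), a call that ended without control 1, 2, 3 or 4 or without minor trauma array 2 or 3 (limma adjusted p = 0.0578 to 0.161). In shock the difference was 0.10 ± 0.40 (limma adjusted p = 0.950). Leaving out control 5 gave differences of 3.45 after 4.5 h, 2.11 after 1 h and 2.06 in minor trauma (limma adjusted p = 1.72e-07, 0.000387 and 0.00178), and 0.44 in shock (limma adjusted p = 0.610). Within the arrays with the dap spike-in, the differences were 3.92 after 4.5 h, 2.85 after 1 h and 2.34 in minor trauma (limma adjusted p = 1.02e-05, 0.000129 and 0.00323). Within those without it, the 1 h and minor trauma differences of 0.94 and 1.42 did not pass (limma adjusted p = 0.561 and 0.790). Shock lay 3.05-fold below minor trauma (-1.61 ± 0.45, limma adjusted p = 0.0283), and this ended without minor trauma array 2 or 3 or without shock array 2 or 4 (limma adjusted p = 0.0632 to 0.0942). From shock to 1 h Steap4 differed by 1.66 ± 0.42 (limma adjusted p = 0.0570), which passed without control 5 (limma adjusted p = 0.0173). From 1 h to 4.5 h it rose 2.52-fold (1.34 ± 0.42, limma adjusted p = 0.0183), and without 1 h array 1 the difference was 1.00 (limma adjusted p = 0.0844). The 1 h and minor trauma means differed by 0.05 ± 0.45 (limma adjusted p = 0.961).

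A second Steap4 probe set, 1425829_a_at, gave the same directions against control in a fit of every kept probe set. It was higher after 4.5 h by 4.0, or 16.02-fold, above the 8.58-fold of the brighter probe set (limma adjusted p = 1.83e-07, with 32.1% of all probe sets called in either direction), after 1 h by 1.79 (limma adjusted p = 0.00698, with 8.84% called) and in minor trauma by 1.73 (limma adjusted p = 0.0495, with 1.91% called). In shock it differed by 0.27 (limma adjusted p = 0.854, with 3.58% called). Its difference of shock from minor trauma, -1.46, did not pass (limma adjusted p = 0.0591). Over the 20 arrays, Lcn2 and Steap4 levels had a Pearson r of 0.946, given as a description since the arrays share their groups. The genes closest to Lcn2 were Serpina3n (r = 0.990), an acute phase serine protease inhibitor, Slc39a14 (r = 0.957), a zinc and iron importer, and Pde12 (r = 0.956). Those closest to Steap4 were Serpina3n (r = 0.945), Clp1 (r = 0.944) and Litaf (r = 0.944).

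The 250 bases before the start site of Lcn2, Steap4 and Hamp are shown because these genes are known to respond to inflammatory signals, the first pair was called together here, and Hamp, described below, was not called. Over the 20 arrays Hamp had a Pearson r of 0.63 with Lcn2 and 0.49 with Steap4, given as a description. The sequences are those of RefSeq on GRCm38.p6, 5′ to 3′ on the gene's strand. Capitals mark matches on either strand to the STAT motif TTCNNNGAA, the C/EBP motif TTGCNNAA, the BMP-responsive element GGCGCC and the NF-kB motif.
Lcn2, chr2:32387740-32387989, minus strand: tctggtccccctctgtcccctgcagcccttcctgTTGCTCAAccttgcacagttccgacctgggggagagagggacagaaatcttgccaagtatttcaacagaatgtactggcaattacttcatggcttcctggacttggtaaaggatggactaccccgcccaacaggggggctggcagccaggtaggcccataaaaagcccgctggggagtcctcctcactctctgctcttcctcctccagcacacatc
Steap4, chr5:7960222-7960471, plus strand: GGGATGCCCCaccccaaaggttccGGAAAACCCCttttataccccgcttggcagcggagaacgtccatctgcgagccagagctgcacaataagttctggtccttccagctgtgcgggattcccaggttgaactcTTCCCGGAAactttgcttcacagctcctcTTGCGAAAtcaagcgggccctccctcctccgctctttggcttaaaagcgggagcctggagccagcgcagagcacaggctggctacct
Hamp, chr7:30944030-30944279, minus strand: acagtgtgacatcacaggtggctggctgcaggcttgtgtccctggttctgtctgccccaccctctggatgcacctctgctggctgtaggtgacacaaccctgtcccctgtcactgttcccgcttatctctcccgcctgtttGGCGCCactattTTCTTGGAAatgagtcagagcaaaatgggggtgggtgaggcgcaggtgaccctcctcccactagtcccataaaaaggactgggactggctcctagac

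The Lcn2 window held a C/EBP match at -216 to -209, counted from the start site. The Steap4 window held a C/EBP match at -87 to -80, a STAT match at -116 to -108 and NF-kB matches at -250 to -241 and -226 to -217. The Hamp window held a STAT match at -97 to -89 and a BMP-responsive element at -109 to -104, and these do not overlap. Of 32851 promoter windows of the same length, 7.02% held the STAT motif, 9.56% the C/EBP motif, 9.59% the BMP-responsive element and 7.25% the NF-kB motif. Windows were found for 7 of the 10 members. Among those not shown, C/EBP matches lay at -129 to -122 and -58 to -51 in Fth1 and at -200 to -193 in Hpx. Ftl1 held an NF-kB match at -15 to -6, and Tfrc a BMP-responsive element at -89 to -84. Fth1, Hpx and Tfrc were not called, so these matches were not limited to the called genes. A match is a description of these letters, and the data hold no measurement of binding.

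Slc40a1 encodes ferroportin, the cellular iron exporter of macrophages, hepatocytes and gut cells, and it fell stepwise in mean level through resuscitation. Its level was 10.52, 10.39, 10.25, 10.66 and 10.14 on control arrays 1 to 5, 10.25, 9.83 and 9.86 in minor trauma, and 9.65, 10.12, 10.12 and 10.17 in shock. It was 9.62, 9.57, 9.41 and 9.43 after 1 h and 7.61, 6.97, 7.85 and 7.72 after 4.5 h. All 1 h arrays lay below every control, minor trauma and shock array, and all 4.5 h arrays lay below every 1 h array.

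After 4.5 h Slc40a1 was 7.24-fold lower than control (log2 difference -2.86 ± 0.16 SE, n = 4 against 5, limma adjusted p = 1.72e-11). The 13 other settings and the 20 fits without 1 array kept this call, with differences of -3.25 to -2.50. After 1 h it was 1.84-fold lower (-0.88 ± 0.16, limma adjusted p = 0.000738). That call ended with the signals as deposited (-0.83, limma adjusted p = 0.109) and within the set of arrays without the dap spike-in (-0.77, limma adjusted p = 0.0613). From 1 h to 4.5 h it fell 3.93-fold (-1.97 ± 0.17, limma adjusted p = 1.47e-08). The differences from control in minor trauma (-0.41 ± 0.17, limma adjusted p = 0.173) and shock (-0.38 ± 0.16, limma adjusted p = 0.268) did not pass. The 1 h group lay below minor trauma by -0.47 ± 0.18 (limma adjusted p = 0.0952) and below shock by -0.51 ± 0.17 (limma adjusted p = 0.178), without overlap in either case.

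The other Slc40a1 probe set, 1448566_at, was lower by -2.24 ± 0.23 after 4.5 h in the fit of every kept probe set (limma adjusted p = 2.07e-07). After 1 h it differed by -0.54 ± 0.23 and did not pass (limma adjusted p = 0.174). The genes closest to Slc40a1 over the 20 arrays were Aldh8a1 (r = 0.964), an aldehyde dehydrogenase, Pdpr (r = 0.963), a regulatory subunit of pyruvate dehydrogenase phosphatase, and Ugt2b35 (r = 0.963), a glucuronosyltransferase.

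Kupffer cell markers moved in the same comparison. At 4.5 h, 7 of 8 were called lower, against 23.8% of all genes, and 1, the scavenger receptor gene Marco, higher by 1.36 ± 0.35 (limma adjusted p = 0.00408). Clec4f, a lectin gene specific to mouse Kupffer cells, fell by 1.56 ± 0.18 on the log2 scale and the complement receptor gene Vsig4 by 2.34 ± 0.17. The macrophage gene Adgre1 fell by 0.99 ± 0.17 and Timd4 by 0.55 ± 0.21. The summed normalized signal of the 8 markers was 2433 to 3837 in controls, 2626 to 4135 in minor trauma, 2830 to 3300 in shock, 1951 to 2526 after 1 h and 953 to 1302 after 4.5 h. All 8 stayed above the array median on every array of every group. Of the 5 monocyte markers tested, Chil3 was 2.70 to 4.03 in controls and 7.34 to 8.83 after 4.5 h. F13a1 was 3.60 to 4.59 and then 6.39 to 7.01, and Vcan 2.83 to 3.33 and then 4.58 to 5.83. The ranges overlapped for Ccr2, at 4.56 to 4.92 in controls and 4.78 to 5.40 after 4.5 h. They also overlapped for Fn1, at 11.78 to 12.13 and 12.03 to 12.32. Chil3, F13a1 and Vcan lay at or below the array median on every control array and passed the filter mainly through the 4.5 h arrays, so their calls are not counted. The part of Kupffer cells in the fall of Slc40a1 was not tested.

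Hamp, which encodes hepcidin, was among the brightest probe sets on the arrays, above 99.9% of them, and passed the test in none of the 7 comparisons. Its level was 12.51, 12.10, 12.56, 12.79 and 13.06 on control arrays 1 to 5, 12.86, 13.11 and 12.64 in minor trauma, and 12.66, 12.83, 12.79 and 12.74 in shock. It was 12.58, 12.88, 12.61 and 12.94 after 1 h and 13.01, 12.90, 12.92 and 12.76 after 4.5 h. The groups overlapped in every comparison, and the controls alone spanned nearly the whole range.

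Against control, Hamp differed by 0.29 ± 0.14 after 4.5 h (limma adjusted p = 0.0949), 0.27 ± 0.15 in minor trauma (limma adjusted p = 0.309), 0.15 ± 0.14 in shock (limma adjusted p = 0.706) and 0.15 ± 0.14 after 1 h (limma adjusted p = 0.605). The 4.5 h difference passed at 0.41 without control 5 (limma adjusted p = 0.0108), at 0.39 with each array centred on its median (limma adjusted p = 0.0456) and at 0.45 with arrays scaled to a common trimmed mean (limma adjusted p = 0.0126). It also passed at 0.34 with array weights (limma adjusted p = 0.0316) and at 0.41 with the replicate number as a block (limma adjusted p = 0.0158). Without control 5 and minor trauma array 3 together it was 0.41 and passed (limma adjusted p = 0.00604). The minor trauma difference passed at 0.58 with median centring (limma adjusted p = 0.0376) and at 0.50 without control 5 and minor trauma array 3 together (limma adjusted p = 0.0356). A second probe set, 1419197_x_at, tracked the first (r = 0.974) and differed by 0.30 ± 0.13 after 4.5 h (limma adjusted p = 0.0736 in the fit of every kept probe set). Hamp2, a close mouse paralog whose transcripts these probe sets may share, had a correlation of 0.577 with Hamp. The genes closest to Hamp were Alas1 (r = 0.845), the rate-limiting enzyme of heme synthesis in liver, Hnrnpd (r = 0.819) and Tmem87b (r = 0.810). The highest normalized level on an array was 13.54, so Hamp, Hp, Hpx and Fth1 on all arrays, and Lcn2 and Steap4 on the 4.5 h arrays, lay near the top of the measured range. How far the array can resolve changes there was not tested, and this applies to the 4.5 h folds of Lcn2 and Steap4 too.

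**Figure D3:**
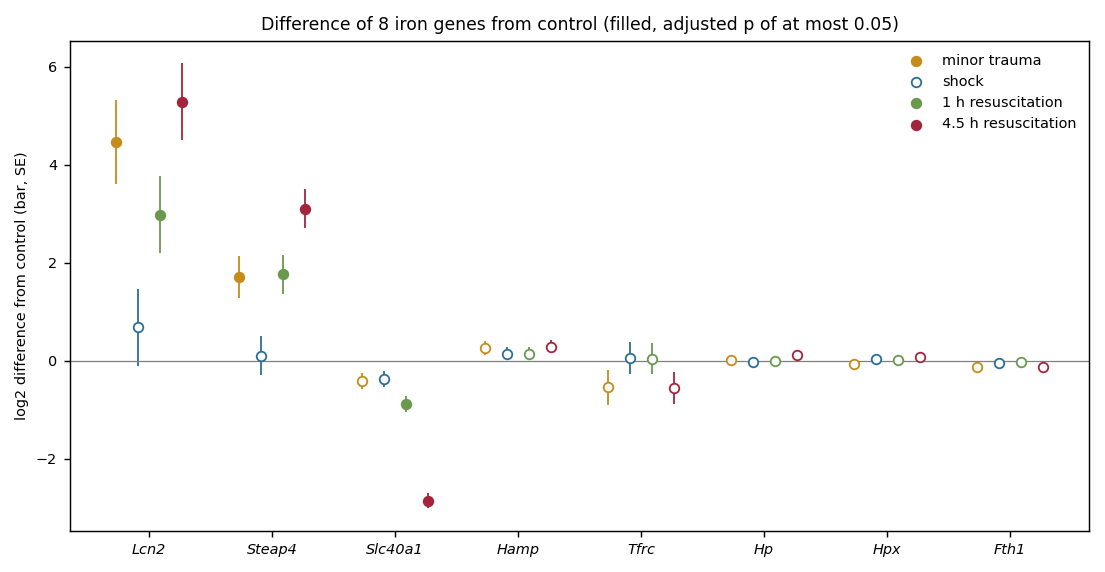
Log2 difference from control of the 8 tested iron genes in minor trauma, shock, and after 1 h and 4.5 h of resuscitation, with bars of 1 SE; filled points passed limma's test at an adjusted p of at most 0.05. Lcn2 reaches 5.29 and Steap4 3.10 at 4.5 h, Slc40a1 falls to -2.86, and no point of Hamp, Tfrc, Hp, Hpx or Fth1 is filled.

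Iron uptake from plasma runs through transferrin, encoded by Trf, and its receptor, encoded by Tfrc. Tfrc ranged from 7.05 to 9.06 in controls, 6.59 to 7.84 in minor trauma, 7.64 to 8.41 in shock, 7.73 to 8.35 after 1 h and 7.20 to 7.75 after 4.5 h. The groups overlapped, and the differences from control were -0.54 ± 0.35 in minor trauma, 0.06 ± 0.32 in shock, 0.04 ± 0.32 after 1 h and -0.55 ± 0.32 after 4.5 h (limma adjusted p = 0.189 to 0.967). A dimmer Tfrc probe set, 1422966_a_at, had a correlation of 0.635 with it and differed by 0.77 ± 0.27 after 1 h (limma adjusted p = 0.0844). The genes closest to Tfrc were Crip1 (r = 0.746), Gucy1a2 (r = 0.737) and Mtres1 (r = 0.729), all lower correlations than those named for Lcn2, Steap4 and Slc40a1. The probe set annotated to both Trf and Srprb, 1425546_a_at, had group means of 12.81 to 12.89, and its differences from control were -0.08 to -0.01 (limma adjusted p = 0.279 to 0.973).

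Ferritin stores iron inside cells in shells of a heavy chain, encoded by Fth1, and a light chain, encoded by Ftl1. Fth1 had group means of 12.70 to 12.83 and differed from control by -0.13 ± 0.06 after 4.5 h (limma adjusted p = 0.0730) and by -0.12 ± 0.06 in minor trauma (limma adjusted p = 0.264). Without control 5 the 4.5 h difference was -0.15 and passed (limma adjusted p = 0.0400), and without minor trauma array 3 it was -0.13 and passed (limma adjusted p = 0.0393). The second Fth1 probe set, 1427021_s_at, differed from control by -0.02 ± 0.05 after 4.5 h. The brightest probe set shared by Ftl1 and the pseudogene Ftl1-ps2, 1418364_a_at, had group means of 12.02 to 12.20 and differed by -0.18 ± 0.08 after 4.5 h (limma adjusted p = 0.0889).

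Haptoglobin, encoded by Hp, and hemopexin, encoded by Hpx, are acute phase proteins of mouse liver. Hp ranged from 12.70 to 12.88 over the control, minor trauma, shock and 1 h arrays and from 12.86 to 13.02 on the 4.5 h arrays. Its 4.5 h difference from control was 0.11 ± 0.05 (limma adjusted p = 0.102), which passed at 0.27 with arrays scaled to a common trimmed mean (limma adjusted p = 0.0407). The 4.5 h arrays did not overlap those of shock, at a difference of 0.13 ± 0.06 (limma adjusted p = 0.0726). Hpx differed from control by -0.06 to 0.07 in the 4 comparisons (limma adjusted p = 0.361 to 0.873).

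Around the members, 59 other iron and heme genes were tested from 4 lists written from general knowledge. Against control, 2 were higher and 1 lower in minor trauma (2.07% and 1.37% of all genes were), and 1 higher and 1 lower in shock (2.03% and 1.08%). After 1 h 4 were higher and 3 lower (4.61% and 5.31%), and after 4.5 h 12 were higher and 24 lower (15.1% and 23.8%). The genes counted higher at both times include Steap1, which passed the filter only through the 1 h and 4.5 h arrays. The counts in minor trauma, in shock and after 1 h are close to the shares of all genes. In minor trauma the genes were Slc39a14 and Alas1, higher, and the metal importer gene Slc39a8, lower. In shock they were Hmox2, which encodes the constitutive heme oxygenase, higher, and Smad5, lower. After 1 h they were Slc39a14, Steap1, Smad1 and Hmox1, higher, and Cd163, the BMP receptor gene Acvr1 and Smad5, lower. Slc39a8, Hmox2, Acvr1 and Smad5 are named from these counts, after their values were seen. The 1 h calls of Smad1 and Cd163 ended in several of the other settings tried, that of Cd163 also without control 5 (-0.47, limma adjusted p = 0.105). The median log2 difference of the 59 genes at 4.5 h was -0.27, and that of all genes -0.09. Without control 5 the minor trauma counts were 8 higher and 2 lower, those in shock were 3 and 1, and those at 4.5 h were 12 and 24. Calls over all genes also rose in that fit, from 441 to 1223 of 12802 in minor trauma. They rose from 399 to 498 in shock and from 4996 to 5175 at 4.5 h. Without minor trauma array 3 the minor trauma counts were 0 and 0, and without any 1 of controls 1 to 3 or of the 4 shock arrays the shock counts were 0 and 0. Of all genes, the first of these fits called 0 in minor trauma, and the others 248 to 356 in shock.

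Of 20 tested genes of hepcidin regulation, 2 rose and 9 fell after 4.5 h, against 15.1% and 23.8% of all genes, with a median of -0.32. Hamp itself was not called with all arrays in the main fit. Its 4.5 h difference passed at 0.41 without control 5 (limma adjusted p = 0.0108) and in the other settings given above. Hjv, the BMP co-receptor hemojuvelin that hepatocytes need to express hepcidin, was 7.72 to 9.16 in controls and 5.73 to 6.15 after 4.5 h. Its fall was 6.43-fold (-2.69 ± 0.23, limma adjusted p = 1.00e-08), and it did not pass in minor trauma, shock or after 1 h. Leaving out control 5, its minor trauma difference was -0.69 and passed (limma adjusted p = 0.0351). Bmp2, a ligand from endothelial cells that drives hepcidin, fell by 1.27 ± 0.23 on the log2 scale (limma adjusted p = 0.000192), a call that ended within the arrays with the dap spike-in (-1.05, limma adjusted p = 0.0532). In minor trauma and in shock Bmp2 was higher by 0.86 and 0.84 when control 5 was left out, and passed there (limma adjusted p = 0.0349 and 0.0486). Neo1, the hemojuvelin-binding receptor neogenin, fell after 4.5 h by 1.07 ± 0.14 (limma adjusted p = 4.44e-06). Smad1, which carries the BMP signal to the nucleus, rose after 4.5 h by 1.26 ± 0.18 (limma adjusted p = 9.62e-06), and its minor trauma difference passed when control 5 was left out (0.76, limma adjusted p = 0.0135). Tmprss6, a protease that cleaves hemojuvelin and so lowers hepcidin, fell by 0.62 ± 0.12 (limma adjusted p = 0.000241), and the inhibitory Smad6 by 1.07 ± 0.20 (limma adjusted p = 0.000181). Id1, a BMP target, differed by -0.12 ± 0.24 (limma adjusted p = 0.731). Tmprss6, Smad6 and Id1 were picked for mention after their values were seen.

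All 15 genes of iron and heme uptake and export were tested, of which 6 rose and 6 fell after 4.5 h, against 15.1% and 23.8% of all genes. Steap1, a relative of Steap4, was 3.29 to 4.18 in controls, below the array median on each, and 6.88 to 7.27 after 4.5 h, at least 5.27-fold higher than control, with the array median standing in for the dimmer control signals (limma adjusted p = 1.00e-08). It was called after 1 h too, by the same bound at least 1.41-fold higher than control (limma adjusted p = 0.00298). This call ended within each set of arrays, at log2 differences taken without the bound. They were 1.68 with the dap spike-in (limma adjusted p = 0.0896) and 0.95 without it (limma adjusted p = 0.123). Steap1 lay below the median on every control, minor trauma and shock array and passed the filter only through the 1 h and 4.5 h arrays, so its calls there support nothing about the list. Slc39a14, the importer of iron not bound to transferrin in hepatocytes, rose by 2.11 ± 0.28 after 4.5 h (limma adjusted p = 3.58e-06), by 1.00 ± 0.28 after 1 h (limma adjusted p = 0.0221) and by 1.60 ± 0.30 in minor trauma (limma adjusted p = 0.0151). The minor trauma call ended without minor trauma array 3 (1.44, limma adjusted p = 0.103). The 1 h call ended without control 2, 3 or 4 or without 1 h array 2, 3 or 4, at 0.84 to 1.00 (limma adjusted p = 0.0554 to 0.0929). In shock Slc39a14 passed without control 5 (0.80, limma adjusted p = 0.0117). Within the arrays without the dap spike-in, its minor trauma and 1 h differences were 1.15 and 0.61 and did not pass (limma adjusted p = 0.790 and 0.580). Scara5, a ferritin receptor, rose 6.53-fold (2.71 ± 0.60, limma adjusted p = 0.00114), from 5.64 to 9.55 in controls to 10.12 to 10.63. Its difference was 1.88 within the arrays without the dap spike-in and did not pass there (limma adjusted p = 0.0698). Its minor trauma difference passed when control 5 was left out (2.33, limma adjusted p = 0.0183). Cd163, the macrophage receptor for haptoglobin-hemoglobin complexes and also a Kupffer cell marker, fell 6.24-fold after 4.5 h (-2.64 ± 0.20, limma adjusted p = 1.84e-09).

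Of 13 tested genes of intracellular iron control and iron-sulfur clusters, 2 rose and 5 fell after 4.5 h, against 15.1% and 23.8% of all genes. The mitochondrial iron importer genes Slc25a28 and Slc25a37 moved in opposite directions, by 0.80 ± 0.16 (limma adjusted p = 0.000564) and -0.79 ± 0.20 (limma adjusted p = 0.00334). Both calls ended within the arrays with the dap spike-in, at 0.77 and -0.73 (limma adjusted p = 0.0686 and 0.103). Nfs1, the desulfurase that supplies sulfur to clusters, fell by 0.39 ± 0.13 (limma adjusted p = 0.0239), a call that ended without control 1 or without 4.5 h array 1, 2 or 4 (limma adjusted p = 0.0538 to 0.0692), and Glrx5, which passes clusters on, by 0.38 ± 0.08 (limma adjusted p = 0.00118). Within the arrays with the dap spike-in neither passed (limma adjusted p = 0.211 for Nfs1 and 0.0901 for Glrx5), and Nfs1 did not pass within the others either (limma adjusted p = 0.102).

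Of 11 tested genes of heme synthesis and breakdown, 2 rose and 4 fell after 4.5 h, against 15.1% and 23.8% of all genes. Hmox1, the inducible heme oxygenase that releases iron from heme, was 6.64, 6.95, 6.94, 6.84 and 7.91 in controls. It reached 8.32 to 10.15 after 1 h, a 5.38-fold rise (2.43 ± 0.36, limma adjusted p = 8.91e-05), and 9.25 to 9.82 after 4.5 h, a 5.55-fold rise (2.47 ± 0.36, limma adjusted p = 1.41e-05). In minor trauma it was 7.74 to 9.03 and in shock 6.56 to 8.29, and neither passed. Leaving out control 5, the minor trauma difference was 1.48 and passed (limma adjusted p = 0.0185), as it did within the arrays with the dap spike-in (1.72, limma adjusted p = 0.0253). Within the arrays without the dap spike-in, the 1 h difference was 1.81 and did not pass (limma adjusted p = 0.152). Alas1 rose by 2.06 ± 0.56 in minor trauma (limma adjusted p = 0.0462), a call that ended in 18 of 20 fits without 1 array and within each set of arrays, and by 1.41 ± 0.51 after 4.5 h (limma adjusted p = 0.0337). Its controls ran from 8.29 to 12.63. The 4.5 h call ended without control 1, 2 or 3 or without any 1 of the 4.5 h arrays, and without control 2 the difference was 0.78 (limma adjusted p = 0.0686). Cpox and Alad, which encode enzymes of heme synthesis, fell by 1.26 ± 0.18 (limma adjusted p = 9.34e-06) and 0.79 ± 0.13 (limma adjusted p = 5.83e-05) after 4.5 h. In minor trauma Cpox passed when control 5 was left out (0.66, limma adjusted p = 0.0323).

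**Figure D4:**
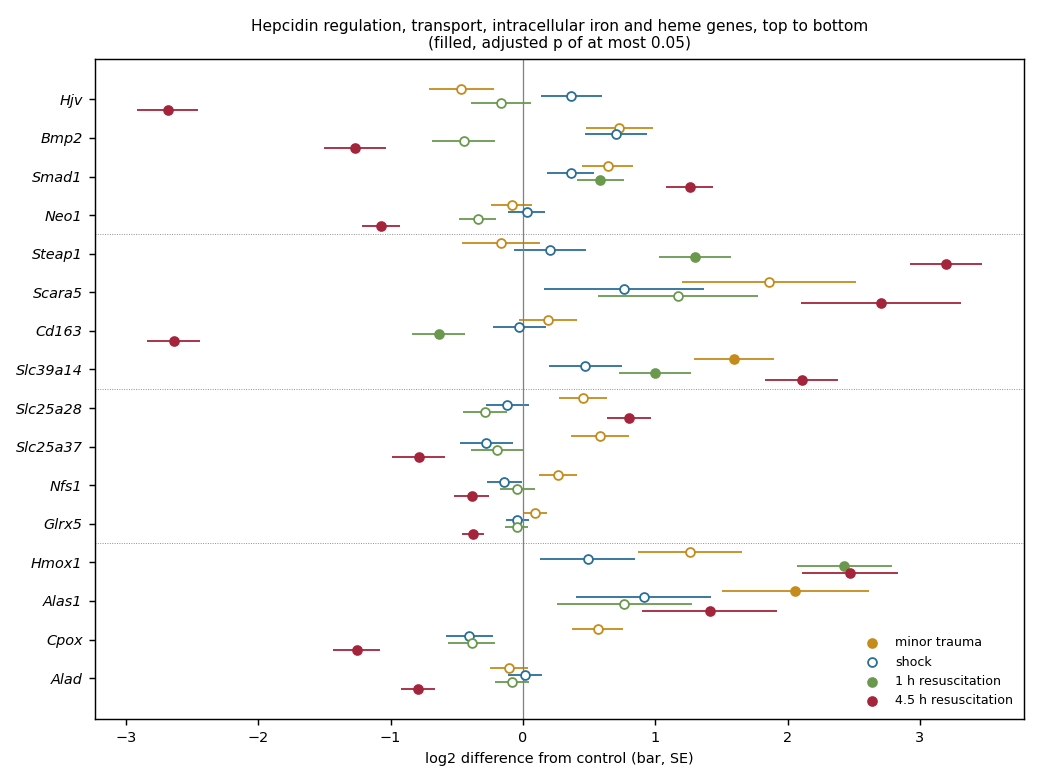
Log2 difference from control of 16 iron and heme genes in the 4 other groups, with bars of 1 SE, in 4 lists from top to bottom (hepcidin regulation, uptake and export, intracellular iron control, heme synthesis and breakdown); filled points passed limma's test. At 4.5 h Hjv stands at -2.69 and Cd163 at -2.64, and Steap1, Scara5, Hmox1 and Slc39a14 stand above 2. The Steap1 points are plain differences, without the lower bound given in the text.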

How the data were processed

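Liver RNA from mice in 5 groups, 20 samples in all, was hybridised to Affymetrix Mouse430_2 arrays, 1 array per sample. The values deposited by the authors are 1 intensity per probe set on a linear scale, made with MAS5 per the submitters' processing notes, while its version, scaling target and detection calls are not given in the sources used here. Arrays carried no common scale in the deposited intensities. Probe sets were named from the platform annotation, which gives 34945 of 45101 probe sets 1 gene, 932 several and 9160 none, beside 64 control probe sets. Depth does not apply to arrays, and their number limits the precision.

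Log2(signal + 6) was put through quantile normalization. Probe sets had to exceed the median of their own array at least 3 times among the 20 arrays, as 27274 did, and a gene was represented by its kept probe set with the highest mean, 12832 genes in all. In limma 3.58.1 under R 4.3.3, 1 linear model of 5 group means was fitted with an intensity trend, and p-values were adjusted by the Benjamini-Hochberg method over all genes within each comparison. Means are given with SD and log2 differences with limma's SE. A fold against a group below the array median is a lower bound taken at that median. The fit was tested on simulated data. Summed marker signals are normalized signals less the pseudocount. Promoters were read from RefSeq windows on GRCm38.p6, and the files themselves name no genome build. Figures were drawn with matplotlib 3.10.9.

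The members, gene lists, marker lists and tests were chosen with earlier results of these data known. Named beside the members were up to 4 genes per list with the largest change among those called in any comparison with control, and for Lcn2, Hamp, Slc40a1, Tfrc and Steap4 the 3 genes of highest correlation. The 3 comparisons of 1 h and 4.5 h with minor trauma and of 4.5 h with shock were added after a first fit, to set neighbouring groups against each other, as was the dap signal of 50 that divides the arrays. The alternatives were no scaling, median centring, a 2% trimmed mean, pseudocounts of 1 and 18, no filter, every probe set, array weights, the replicate number and the spike-in set as blocks, each spike-in set alone, the arrays that stand apart left out, and each array left out in turn.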

Additional observations from a re-analysis of the deposited data

Results flagged for a closer look

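Of 96 sets of values tested, each 1 gene in 1 group of 4 or 5 arrays, 11 held an array far from the others by Dixon's test at its 95% limit. Chance alone flags about 1 in 20 such sets. All values are log2(signal + 6), each with the nearest array of its group.

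Control 5 accounted for 3 of them. It stood at 11.78 for Lcn2, where the next control was at 7.67, at 7.91 for Hmox1, against 6.95, and at 8.70 for Smad1, against 8.24. Array 1 of the 1 h group accounted for 3 more. It stood at 9.35 for Lcn2, below 11.01, at 10.27 for Steap4, below 11.59, and at 6.84 for Cd163, below 7.31. Array 3 of the 4.5 h group was high for Steap1 (7.27, next 6.94) and for Nfs1 (8.86, next 8.61). Hp was low on control 1 (12.75, next 12.83) and on shock array 4 (12.70, next 12.85), and Slc40a1 was low on shock array 1 (9.65, next 10.12). Whether these arrays differ in tissue, animal or handling was not tested.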

How the results depend on the processing

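Of 5544 log2 differences recomputed for members and named pathway genes under the alternatives, none that was called turned its direction, 194 lost their call and 96 gained one. Of 396 counts, 84 moved by more than 1.5 times. The Slc40a1, Lcn2 and Steap4 calls at 4.5 h against control held under every alternative. With the values as deposited, the pathway genes called were 0 in shock, 3 at 1 h and 22 at 4.5 h (9 higher, 13 lower), and 2 members were called from shock to 1 h, Lcn2 and Steap4. This setting called 199 of all genes in shock, 482 at 1 h, 2914 at 4.5 h and 76 from shock to 1 h. Without scaling, the median of all genes was 0.20 in minor trauma and -0.27 at 4.5 h. Median centring gave 7 pathway genes in minor trauma (all higher), 1 in shock and 4 at 1 h, and 1 member, Steap4, from shock to 1 h, with a median of all genes of 0.14 in minor trauma. Trimmed mean scaling called 5 members at 4.5 h (4 higher, 1 lower), with Hamp and Hp added, and 4878 of all genes. A pseudocount of 18, testing every probe set and array weights each called 1 member, Steap4, from shock to 1 h. They called 177 genes, 377 of 27215 probe sets and 412 genes there. Testing every probe set called 1 pathway gene in minor trauma, and 519 of all probe sets. Array weights called 5 pathway genes in minor trauma, and 5 members at 4.5 h (3 higher, 2 lower), with Hamp and Fth1 added. Of all genes, array weights called 650 in minor trauma and 5375 at 4.5 h. Without the filter, 1 member was called in minor trauma and 1 pathway gene in shock, beside 266 and 359 of 18193 genes. With the spike-in set as a block, 1 pathway gene was called in minor trauma and 1 in shock, beside 326 and 376 of all genes. Within the spiked set, 1 member was called in shock and 2 from shock to 1 h, and the pathway genes numbered 1 in shock, 3 at 1 h and 18 at 4.5 h (7 higher, 11 lower). Of 12135 genes, that fit called 154 in shock, 446 at 1 h, 2643 at 4.5 h and 56 from shock to 1 h. Within the unspiked set, 0 members were called in minor trauma, at 1 h and in shock against minor trauma, 1 from 1 h to 4.5 h and 1 in the F test, and 0 pathway genes in minor trauma, in shock and at 1 h. There 0 of all genes passed in minor trauma, against 441 with all arrays. Without control 5 and minor trauma array 3, the pathway genes called were 6 in minor trauma (4 higher, 2 lower) and 4 in shock, and the members 1 in shock, 5 at 4.5 h (3 higher, 2 lower) and 2 from shock to 1 h.

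Without 1 array at a time, the members called ranged from 0 to 2 in minor trauma, 0 to 1 in shock, 2 to 3 at 1 h, 3 to 5 at 4.5 h, 1 to 2 in shock against minor trauma, 0 to 2 from shock to 1 h and 1 to 3 from 1 h to 4.5 h, and stayed at 3 in the F test. Pathway genes ranged from 0 to 10 in minor trauma, 0 to 4 in shock, 3 to 8 at 1 h and 30 to 41 at 4.5 h. The genes called among all those tested in minor trauma ranged from 0 without minor trauma array 3 to 1223 without control 5. In shock they ranged from 248 to 574, at 1 h from 888 to 1618 and at 4.5 h from 4467 to 5512. For shock against minor trauma the range was 710 to 1612. From shock to 1 h it was 82 to 204, and from 1 h to 4.5 h 3468 to 4793. Arrays of different groups share replicate numbers in the labels. The deviations of same-numbered arrays from their group means had correlations of -0.08 to 0.17 over 36 pairs, and 5 of 20 arrays correlated best with their own number. Other-numbered arrays had correlations of -0.17 to 0.15 over 123 pairs. No pairing by number was seen, but with so few arrays in each group a weak one could be missed. The fit with the replicate number as a block called 11 pathway genes in minor trauma (9 higher, 2 lower), and 1 member in shock, 5 at 4.5 h (3 higher, 2 lower) and 2 from shock to 1 h. In that fit control 5 is the only array of its number. The cause of these shifts was not tested, beyond the smaller number of arrays in fits within a set or without arrays.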
